A study of Mus musculus with 12 samples.

Results

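Cardiac fibroblasts from 18-month mice were compared with cardiac fibroblasts from neonatal mice, both carrying vectors for the transcription factors Mef2c, Gata4 and Tbx5 (MGT). The comparison used 4 of the study's 12 libraries, chosen by their labels for age and treatment, and covered all 16383 genes of the deposited table. The study concerns direct cardiac reprogramming, and its title refers to senescence as a barrier and to Nr4a3, a nuclear receptor. The 18-month group held 2 libraries and the neonatal group, from mice of postnatal days 1 to 3, held 2 libraries. All cells were primary cells of wild-type heart and were collected on day 3, and the control cells of the same ages, also with 2 libraries each, carried LacZ in place of MGT. The study's other 4 libraries, 2 with MGT and 2 with LacZ, came from 3-month mice. They share in the estimate of spread, and their levels are given where named. The labels give neither the sex of the mice, nor the passage of the cells, nor whether the libraries of a group came from separate animals or cultures. Every p-value therefore measures the spread between these libraries. Cells of different ages necessarily came from different preparations, so that a preparation effect cannot be told apart from age.

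Direct cardiac reprogramming adds heart transcription factors to a fibroblast, which then begins to make sarcomere proteins, ion channels and calcium-cycling proteins and to lose fibroblast genes. Neonatal fibroblasts still carry growth genes of the fetus, many of them imprinted, which mice switch off after birth. Fibroblasts in culture may also make interferon-induced antiviral proteins, and cells that enter senescence stop dividing and secrete chemokines, growth factors and matrix proteases.

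Library totals ran from 15999407 to 17755156 fragments in the 4 MGT libraries compared, of which the table holds 87.074% to 87.504%. Expression is given as CPM, counts scaled to a common library total after TMM normalization, which is not adjusted for gene length and is compared between libraries only. Differences are log2 changes of 18 months minus neonatal with their standard error (SE) from edgeR's quasi-likelihood test, and a gene was called at a Benjamini-Hochberg adjusted p below 0.05 over 11940 tested genes. Replicates differed by more than counting error, the chi-square per degree of freedom being 4.947 between the neonatal and 7.743 between the 18-month MGT libraries. It was largest, at 22.211, between the 3-month LacZ libraries, which share in the estimate of spread behind every test. All 4 libraries expressed fibroblast genes: Vim, an intermediate filament gene, measured 3070 ± 130 CPM in neonatal and 3440 ± 110 CPM in 18-month MGT cells (mean ± SD, n = 2 throughout). The fibroblast receptor gene Pdgfra measured 121 ± 14 and 454 ± 6.8 CPM. Markers of other cell types did not stay level. The summed CPM of 19 endothelial genes was 914 and 843 in the neonatal and 555 and 674 in the 18-month libraries, that of 16 epicardial and mesothelial genes 734 and 765 against 456 and 423, and that of 18 macrophage genes 157 and 177 against 271 and 268. Most of the 18-month endothelial sum came from Eng, which fibroblasts also express, and the median log2 change of the tested endothelial genes was -3.33. The epicardial sum includes Aldh1a2, which was higher at 18 months, at 55.8 and 45.9 against 170 and 149 CPM. Erythroid genes summed to at most 1.13 CPM in any of the 4. In bulk RNA, fewer cells of a type and less RNA per cell cannot be told apart.

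Age divided the MGT transcriptomes broadly. Of the 11940 genes tested, 1975 (16.5%) were higher at 18 months and 2149 (18.0%) were lower, together 34.5%. Counts of called members in every list below are to be read against these shares. The median log2 change over all tested genes was -0.01. At least 2-fold differences were called for 573 genes (4.80%) that were higher and 765 (6.41%) that were lower. In LacZ cells 40.4% of the genes were called (4825), of which 2268 were higher and 2557 lower (21.4%). Differences of at least 2-fold made up 4.14% upwards and 8.97% downwards. In MGT cells both 18-month libraries lay above both neonatal libraries in 3913 genes (32.8%) and below both in 4210 (35.3%). Without neonatal replicate 2, the library whose removal cost the most calls, 2932 genes were called in place of 4124.

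**Figure D1:**
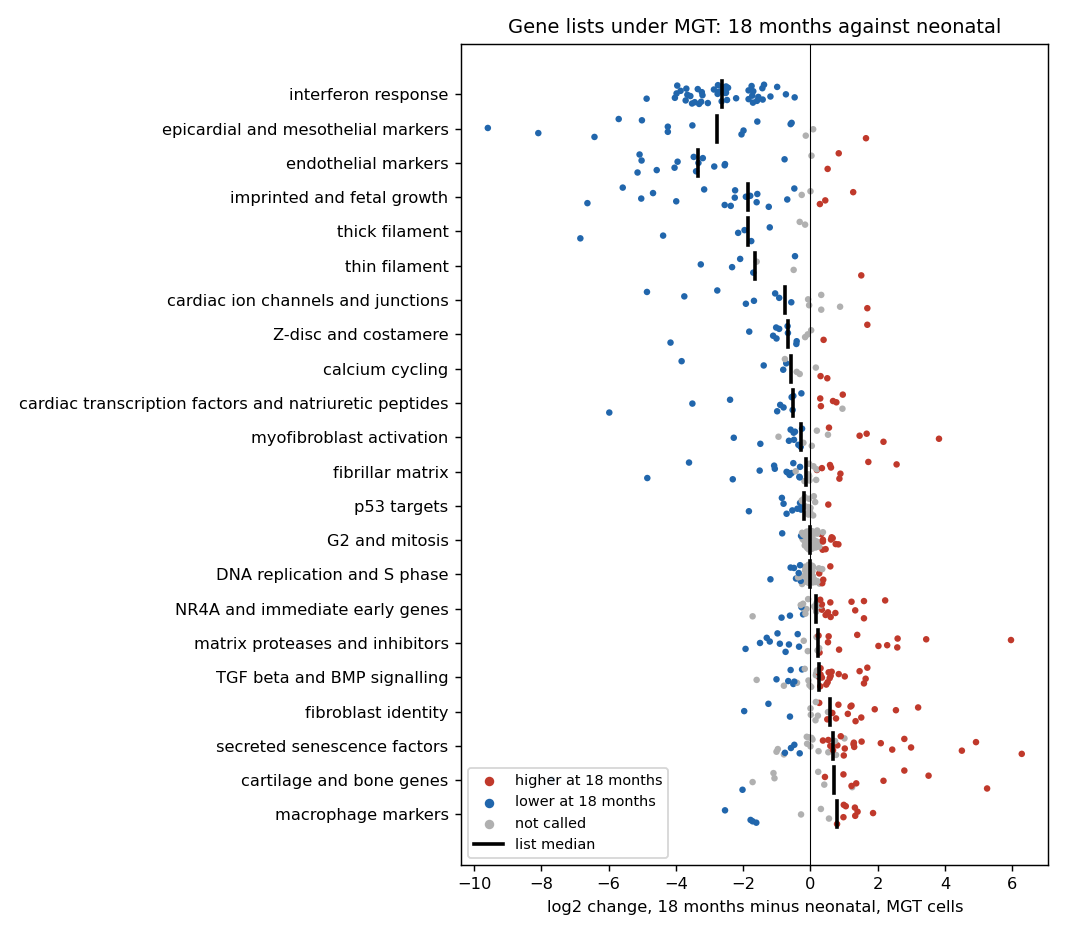
Log2 change (18 months minus neonatal, MGT cells, horizontal axis) of each tested member of 22 gene lists (rows), with red points called higher, blue points called lower, grey points not called and a black bar at the list median. The 45 interferon genes all lie below 0, whereas the secreted factors and fibroblast genes lie mainly above it.

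Of the 3 delivered factors Gata4 was called lower and the other two were not called. Tbx5 measured 217 and 269 CPM in the neonatal and 244 and 299 CPM in the 18-month libraries, so that the groups overlapped, and the log2 change was 0.16 ± 0.11 (SE, edgeR adjusted p = 0.27). Mef2c measured 178 and 218 CPM against 151 and 181 CPM (log2 change -0.25 ± 0.11, adjusted p = 0.082), and was called lower without 18-month replicate 2 or neonatal replicate 1 (adjusted p = 0.04 and 0.027). Gata4 measured 268 and 304 CPM against 217 and 251 CPM, a log2 change of -0.29 ± 0.09 (adjusted p = 0.015). The Gata4 call was lost without 18-month replicate 1 (adjusted p = 0.19) or neonatal replicate 2 (0.23). These counts add vector and endogenous transcripts together. Under LacZ, where no vector for them was given, all 3 were called lower at 18 months. There the age difference in Gata4 was -0.51 (159 ± 6.9 against 111 ± 0.36 CPM). It was -0.92 in Mef2c (17.3 ± 1.2 against 9.19 ± 1.6 CPM) and -1.86 in Tbx5 (2.2 ± 0.32 against 0.603 ± 0.2 CPM).

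Sarcomere genes were mostly lower in 18-month MGT cells, yet some were not called and a few were higher. Of 8 tested thick filament genes 6 were lower and none higher (median log2 change -1.86), and of 8 thin filament genes 5 were lower and 1 higher (median -1.65). Of 15 Z-disc and costamere genes, which anchor the filaments, 10 were lower and 2 higher (median -0.67), and the 2 became 1 without neonatal replicate 1. Over all tested genes 18.0% were lower and the median was -0.01. Under LacZ, in the order thick filament, thin filament and Z-disc, 8, 5 and 8 genes were lower and none higher. The LacZ medians were -4.92, -2.09 and -1.07, with Mybpc3 at 0 counts and Myl7 at 1 count over the 18-month libraries. The age change was called higher under MGT than under LacZ for 3, 1 and 1 genes, and called lower for none.

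Tnnt2, the cardiac troponin T gene (ENSMUSG00000026414, mm10 chromosome 1, 135836354 to 135852260), measured 878 and 1270 CPM in neonatal and 249 and 256 CPM in 18-month MGT cells. Both 18-month libraries lay below both neonatal ones, and the log2 change was -2.09 ± 0.14 (SE, edgeR adjusted p = 7.9e-10). Myl7, the atrial myosin light chain gene, measured 47.2 and 74.9 CPM against 13.7 and 13.7 CPM (log2 change -2.15 ± 0.17, adjusted p = 2.1e-08). Myom1, whose protein crosslinks the thick filaments at the M-line, measured 45.1 and 69.7 CPM against 25.6 and 24 CPM, and Mybpc3, the cardiac myosin-binding protein C gene, 7.42 and 12.1 CPM against 2.39 and 3.33 CPM. Both were lower without overlap (log2 changes -1.21 and -1.76). Tpm1, a tropomyosin gene that fibroblasts also use, was lower by less, at 1940 and 2240 CPM against 1560 and 1470 CPM (log2 change -0.46 ± 0.08, adjusted p = 0.00014). Myh6, the alpha myosin heavy chain gene, had 277 counts over the neonatal libraries and 2 over the 18-month libraries, a ratio of 128 with an exact counting interval (95%) of 35.1 to 1060. Myh6 measured 7.53 and 8.62 CPM in neonatal MGT cells and 8.26 and 7.63 CPM in neonatal LacZ cells.

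Not every muscle gene followed. Xirp2, a costamere protein gene of striated muscle, measured 90.5 and 52 CPM in neonatal and 219 and 243 CPM in 18-month MGT cells, a log2 change of 1.69 ± 0.18 (edgeR adjusted p = 6.2e-07). Acta1, the skeletal alpha actin gene, measured 2.42 and 2.11 against 5.99 and 6.98 CPM (log2 change 1.51 ± 0.28, adjusted p = 0.00034), and Cryab, a small heat shock protein gene of the Z-disc, 467 and 531 against 628 and 679 CPM (0.39 ± 0.09, adjusted p = 0.0026, and 0.056 without neonatal replicate 1). Des (desmin) at 249 and 313 against 243 and 261 CPM, Myom2 at 84 and 123 against 85.2 and 99.8 CPM and Ttn (titin) at 48.7 and 87.2 against 51.3 and 57.5 CPM were not called, with adjusted p of 0.21, 0.37 and 0.18, but were called lower without neonatal replicate 1 (0.031, 0.016 and 0.0011). In 18-month LacZ cells Des stood at 3.59 and 3.9, Myom2 at 1.21 and 0.929 and Xirp2 at 0.81 and 0.0619 CPM.

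**Figure D2:**
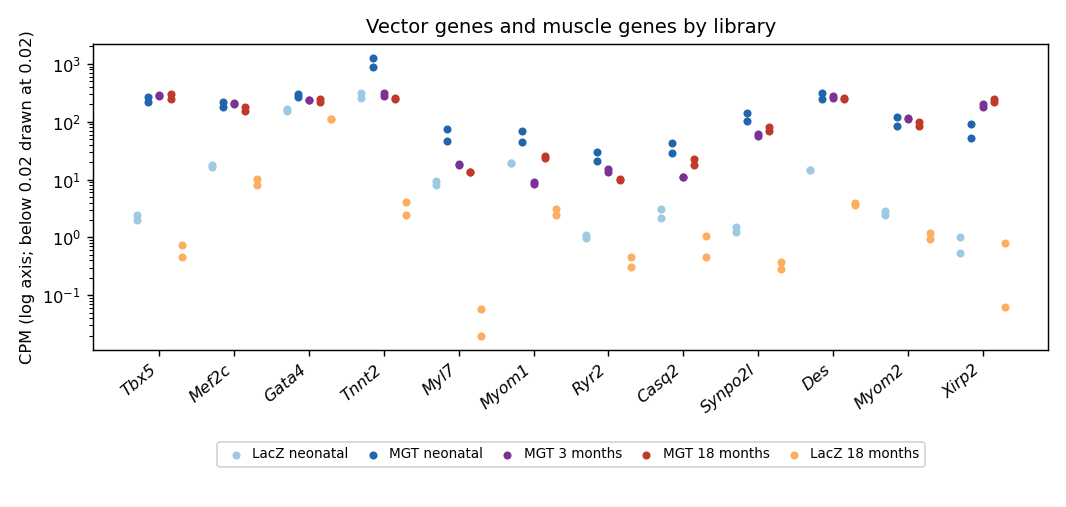
CPM (log axis, values below 0.02 drawn at 0.02) of the vector genes and muscle genes, with a point for each library and a colour for each group. Tnnt2, Myl7, Myom1, Ryr2, Casq2 and Synpo2l are lower in both 18-month MGT libraries than in both neonatal MGT libraries, Des and Myom2 overlap, and Xirp2 is higher.

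Genes of excitation and calcium cycling were lower in part. Of 10 tested calcium-cycling genes 4 were lower and 2 higher (median log2 change -0.56), and of 14 genes for ion channels and junctions 8 were lower and 1 higher (median -0.75), the 8 falling to 5 without 18-month replicate 2 or neonatal replicate 1 and the 1 to 0 without 18-month or neonatal replicate 2. Ryr2, the calcium release channel of the sarcoplasmic reticulum, measured 21.3 and 30.4 CPM in neonatal and 9.64 and 10.1 CPM in 18-month MGT cells (log2 change -1.39 ± 0.17, edgeR adjusted p = 3e-06). Slc8a1, the sodium-calcium exchanger, measured 87.7 and 98.3 against 58.4 and 54.9 CPM (-0.72 ± 0.12, adjusted p = 0.00012). Casq2, the calcium buffer calsequestrin, measured 29.2 and 42.9 against 23.1 and 17.9 CPM (-0.81 ± 0.18, adjusted p = 0.0015), a call lost without neonatal replicate 2 (adjusted p = 0.072). Atp2a2, the calcium pump SERCA2, went the other way with 494 and 505 against 604 and 626 CPM (0.3 ± 0.08, adjusted p = 0.0049). Kcnj5, a potassium channel gene of atrial cells, measured 16.9 and 21.9 against 0.882 and 0.44 CPM (-4.86 ± 0.34, adjusted p = 1.7e-09), and it was already 9.39 and 8.91 CPM in neonatal LacZ cells. Jph2, which holds the membranes of the calcium release unit together, and the gap junction gene Gja1 were not called, with log2 changes of 0.16 and -0.04, but Jph2 was called higher without 18-month replicate 1 (log2 change 0.32, adjusted p = 0.017).

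Among 16 cardiac transcription factor and natriuretic peptide genes 10 were lower and 5 were higher (median log2 change -0.52), and the 5 became 1 without neonatal replicate 2 and 2 without 18-month replicate 2 or neonatal replicate 1. Nppa, the atrial natriuretic peptide gene, measured 13 and 19.5 CPM in neonatal and 1.26 and 1.57 CPM in 18-month MGT cells (log2 change -3.51 ± 0.31, edgeR adjusted p = 5.6e-08). Gata6, a zinc finger factor of the heart, measured 80.6 and 85.8 against 42.7 and 41.1 CPM (-0.99 ± 0.09, adjusted p = 4.5e-08), and Mef2a, a relative of the delivered Mef2c, 325 and 280 against 182 and 165 CPM (-0.8 ± 0.09, adjusted p = 1.8e-06). Both differed in the same direction under LacZ, by -1.29 and -1.1. Nppa was lower under LacZ too, with 153 counts over the neonatal and 0 over the 18-month libraries. Tbx3, a T-box factor of the conduction system, was higher, at 4.83 and 5.36 against 8.95 and 10.9 CPM (0.96 ± 0.21, adjusted p = 0.0012).

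Interferon-response genes were lower throughout. They form the antiviral program that type I interferon turns on. All 45 tested genes of the list were lower at 18 months, against 18.0% of all genes. By at least 2-fold 42 of them were lower, against 6.41% of all genes. In all 45 both 18-month libraries lay below both neonatal ones, against 35.3% of all genes, and the median log2 change was -2.62. Their summed level was 5160 and 4410 CPM in the neonatal and 902 and 977 CPM in the 18-month MGT libraries. It was 3640 and 3620 CPM in the MGT libraries of 3-month mice. Under LacZ all 45 were lower as well (median -2.87), with sums of 6340 and 6630 against 1020 and 1320 CPM.

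Interferon signalling acts through a DNA element, the ISRE, made of a repeated TTTC. A window of 250 bases before to 50 bases after the start was given for 34 of the 45 genes in RefSeq (build GRCm38.p6), and 17 of the 34 held it on either strand, searched as TTTC, any 2 bases and TTTC again, with overlapping matches counted. Of all 27025 genes with a window 3.99% held it, and of all 32851 windows 3.44%. A match is a match of letters and not a shown binding site. The windows of the 4 genes with the largest decreases among the members with a match are printed, each with more than 1 match, from the 5′ to the 3′ end of the gene's strand, with each match in capitals. Ifit1 lies on chr19:34640639-34640938 (+ strand), Gbp3 on chr3:142559794-142560093 (+ strand), Isg15 on chr4:156200769-156201068 (- strand) and Ddx60 on chr8:61927837-61928136 (+ strand).
Ifit1: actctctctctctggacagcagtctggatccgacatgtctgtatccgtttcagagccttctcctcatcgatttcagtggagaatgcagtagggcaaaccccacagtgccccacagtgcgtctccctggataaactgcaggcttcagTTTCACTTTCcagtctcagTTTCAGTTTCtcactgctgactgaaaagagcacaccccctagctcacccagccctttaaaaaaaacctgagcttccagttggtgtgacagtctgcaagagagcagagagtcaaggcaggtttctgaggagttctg
Gbp3: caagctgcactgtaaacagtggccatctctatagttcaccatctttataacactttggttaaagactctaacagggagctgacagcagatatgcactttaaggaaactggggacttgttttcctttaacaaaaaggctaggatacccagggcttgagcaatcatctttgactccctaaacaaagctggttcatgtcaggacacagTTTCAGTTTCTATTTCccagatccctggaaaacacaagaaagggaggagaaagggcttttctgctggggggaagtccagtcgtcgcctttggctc
Isg15: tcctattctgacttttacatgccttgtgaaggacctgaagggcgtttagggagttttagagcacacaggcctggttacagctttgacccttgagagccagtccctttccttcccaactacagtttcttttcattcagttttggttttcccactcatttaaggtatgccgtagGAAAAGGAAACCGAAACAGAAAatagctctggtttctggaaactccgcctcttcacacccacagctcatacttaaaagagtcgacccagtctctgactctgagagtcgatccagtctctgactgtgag
Ddx60: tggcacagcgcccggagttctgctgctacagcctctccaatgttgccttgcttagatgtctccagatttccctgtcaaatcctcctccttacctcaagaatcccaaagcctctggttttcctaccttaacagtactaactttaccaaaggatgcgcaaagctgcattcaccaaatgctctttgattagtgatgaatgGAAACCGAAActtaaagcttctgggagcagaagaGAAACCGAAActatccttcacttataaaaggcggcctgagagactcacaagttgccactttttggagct
The matches began 104 to 85 bases before the start in Ifit1, 45 to 39 in Gbp3, 78 to 66 in Isg15, where 3 of them overlap, and 53 to 19 in Ddx60. In Isg15 and Ddx60 they read GAAA, 2 bases and GAAA, the same element on the other strand.

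All 4 of these genes were lower at 18 months by over 3 log2 units. Ifit1, whose protein binds viral RNA that lacks the host cap, measured 231 and 185 CPM in neonatal and 12.7 and 12.6 CPM in 18-month MGT cells (log2 change -4.03 ± 0.24, edgeR adjusted p = 1.3e-10). Isg15, a ubiquitin-like modifier, measured 218 and 181 against 13.2 and 18.4 CPM (-3.66 ± 0.16, adjusted p = 3.2e-12). Gbp3, an interferon-induced GTPase gene, measured 107 and 77 against 6.68 and 7.42 CPM (-3.71 ± 0.17), and Ddx60, a helicase gene of antiviral defence, 38.8 and 28.3 against 2.9 and 3.27 CPM (-3.44 ± 0.23). In each the 18-month libraries stood close together and far under the neonatal ones.

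Members without such a match in a window, or with no window, were lower too. Ifi44 (ENSMUSG00000028037, mm10 chromosome 3, 151730922 to 151749960) had the largest change of the list, from 142 and 103 CPM to 3.59 and 4.78 CPM (log2 change -4.87 ± 0.18, edgeR adjusted p = 2.3e-13). Usp18, which removes ISG15 from proteins and damps interferon receptor signalling, measured 160 and 127 against 8.51 and 9.99 CPM, and Mx2, a dynamin-like antiviral GTPase, 26.6 and 24.4 against 1.26 and 1.95 CPM. Irf7, which amplifies interferon production, measured 151 and 111 against 9.07 and 12.9 CPM (-3.57 ± 0.19, adjusted p = 2.8e-11). Ifit2 changed least of the list, from 102 and 102 to 76.9 and 70.6 CPM (-0.47 ± 0.1, adjusted p = 0.0012).

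Complement and antigen-presentation genes divided. Of 21 tested 11 were lower and 5 higher (median log2 change -0.37). The lower ones include genes that interferon also induces in mice, such as H2-Q4, a class I gene with close relatives whose reads may be split, at 83.4 and 67.9 against 20.5 and 21.1 CPM (-1.86 ± 0.12, edgeR adjusted p = 2.8e-10). C3, the central complement protein, was higher, at 109 and 97.4 CPM in neonatal and 689 and 745 CPM in 18-month MGT cells (2.79 ± 0.12, adjusted p = 1.5e-12).

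**Figure D3:**
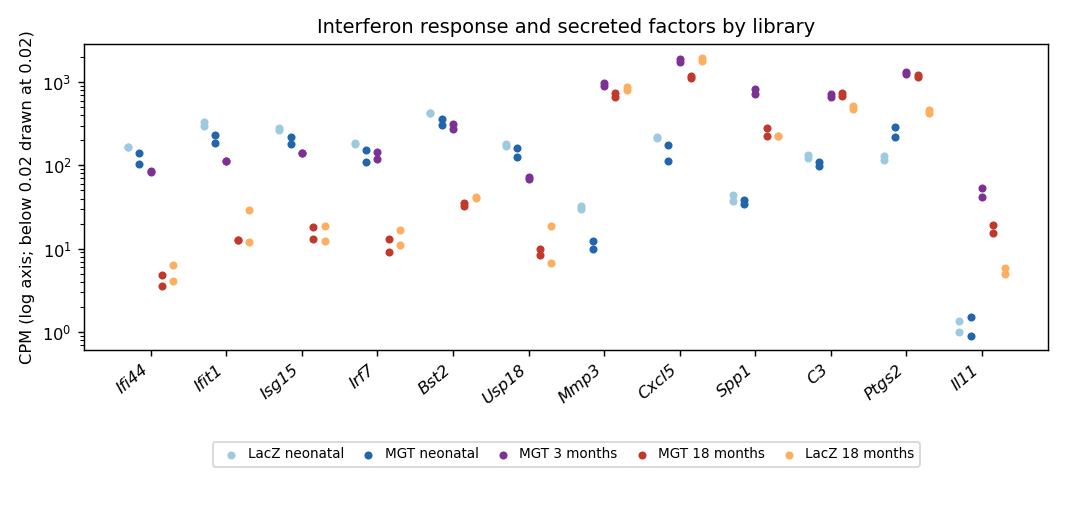
CPM (log axis, values below 0.02 drawn at 0.02) of 6 interferon genes and 6 genes of proteases, secreted factors and prostaglandin synthesis, with a point for each library. The interferon genes are lower at 18 months under either vector, with the 3-month MGT libraries closer to the neonatal ones, and the 6 others are higher at 18 months under either vector.

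Markers of endothelial cells and of the epicardium and mesothelium, the sheets that cover the heart, were mostly far lower in 18-month MGT cells. Of 17 tested endothelial genes 14 were lower and 2 higher (median log2 change -3.33). Cdh5, the VE-cadherin gene, measured 95.2 and 80.7 CPM in neonatal and 2.96 and 2.01 CPM in 18-month MGT cells (log2 change -5.14 ± 0.26, edgeR adjusted p = 1.9e-11). Tie1, an endothelial receptor gene, measured 23.7 and 19.5 against 1.01 and 0.251 CPM, and Plvap, a gene of fenestral diaphragms, 41.4 and 38.8 against 1.2 and 1.26 CPM. The exceptions were Vwf and Eng. The Vwf call (0.84 ± 0.32, adjusted p = 0.05) was lost when any of the 4 libraries was left out. Eng is a TGF beta co-receptor gene that fibroblasts also express, and measured 397 and 373 against 485 and 616 CPM.

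Of 16 epicardial and mesothelial genes 13 were lower and 1 higher (median log2 change -2.78). Upk3b, a mesothelial surface gene, measured 46.7 and 49.1 CPM in neonatal and 1.51 and 1.45 CPM in 18-month MGT cells (log2 change -5.01 ± 0.15, edgeR adjusted p = 1.5e-14). Bnc1, a mesothelial zinc finger gene, measured 14.3 and 14 against 0 and 0.314 CPM (-6.42 ± 0.44, adjusted p = 9e-10). Gpm6a, a membrane glycoprotein gene, had 657 counts over the neonatal and 2 over the 18-month libraries, a ratio of 304 with an exact counting interval of 83.7 to 2510. Krt8, an epithelial keratin gene, had 198 counts over the neonatal and 0 over the 18-month libraries, and was at least 61-fold higher in neonatal cells when 3 counts over the group are allowed for a count of 0. Aldh1a2, the retinoic acid enzyme that the list also holds, was higher at 18 months, at 55.8 and 45.9 against 170 and 149 CPM (1.65 ± 0.1, adjusted p = 2.2e-10). In neonatal LacZ cells Upk3b stood at 145 and 130 CPM. The part of these markers in the differences of other genes was not tested.

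Macrophage markers were more often higher than lower under MGT but not under LacZ. Of 15 tested 8 were higher and 4 lower under MGT (median log2 change 0.79). Under LacZ 6 were higher and 6 lower (median 0.21), and the list summed to 186 and 211 CPM in neonatal against 204 and 184 CPM in 18-month cells. The group means of Cx3cr1, Ccr2 and Cd163 were at most 0.346 CPM in both MGT groups. Csf1r, the receptor that maintains macrophages, measured 18.9 and 21 CPM in neonatal and 46.1 and 54.4 CPM in 18-month MGT cells (1.33 ± 0.11, edgeR adjusted p = 2e-08), and Itgam 2.92 and 3.32 against 12.4 and 10.3 CPM (1.86 ± 0.19, adjusted p = 2.2e-07). The lower members were Lyve1 and the complement C1q genes C1qa, C1qb and C1qc, of which the C1qa call was lost without 18-month or neonatal replicate 2 (adjusted p = 0.14 and 0.12). Of 13 smooth muscle and pericyte genes 5 were lower and 2 higher. The 5 became 3 without 18-month or neonatal replicate 2, and the 2 became 1 without 18-month replicate 2 or neonatal replicate 1. Mcam, a pericyte adhesion gene, measured 143 and 144 against 10.5 and 10.8 CPM, whereas Myh11, the smooth muscle myosin gene, was higher at 19.1 and 16 against 5.56 and 5.48 CPM. The Y-linked gene Kdm5d measured 13.5 and 15.4 CPM in neonatal and 34.3 and 29.7 CPM in 18-month MGT cells (1.15 ± 0.13, adjusted p = 1.2e-06), and 15.1 and 13.8 against 31.3 and 33.1 CPM under LacZ. The labels do not give the sex of the mice, and its part in the other differences was not tested.

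Fetal growth genes were mostly lower at 18 months. Of 22 tested imprinted and fetal growth genes 17 were lower, 15 of them by at least 2-fold, and 3 were higher (median log2 change -1.86). Gpc3, a surface proteoglycan that restrains growth, measured 30.3 and 33.6 CPM in neonatal and 0.504 and 0.126 CPM in 18-month MGT cells (log2 change -6.63 ± 0.29, edgeR adjusted p = 2.4e-12). Slc38a4, an imprinted amino acid transporter, measured 47.5 and 40.1 against 0.63 and 1.19 CPM (-5.58 ± 0.22), and Mest, an imprinted gene of mesoderm, 49.7 and 46 against 1.7 and 2.01 CPM (-4.68 ± 0.19). H19, the imprinted long noncoding RNA gene beside Igf2, measured 15.4 and 12.8 against 0.693 and 1.07 CPM (-3.99 ± 0.28). Igf2 itself was low, with 79 counts over the neonatal and 2 over the 18-month libraries, a ratio of 36.5 with a counting interval of 9.78 to 307. Mycn, a growth factor-responsive transcription factor gene, was higher, at 10.5 and 8.14 against 24.5 and 20.7 CPM (1.27 ± 0.16, adjusted p = 2.7e-06). Under LacZ 18 of the 22 were lower and 3 higher.

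Fibroblast identity genes were mostly higher in 18-month MGT cells: 13 of 22 tested were higher, against 16.5% of all genes, and 3 were lower (median log2 change 0.58). Under LacZ 11 were higher and 8 lower (median 0.3). The age change was called higher under MGT than under LacZ for 6 of the genes and lower for 1. Pdgfra measured 131 and 111 CPM in neonatal and 450 and 459 CPM in 18-month cells (log2 change 1.91 ± 0.09, edgeR adjusted p = 9.5e-12). Mfap5, a microfibril gene, measured 44.7 and 47.3 against 259 and 274 CPM (2.54 ± 0.09, adjusted p = 1.7e-13), and Pi16, a gene of reservoir fibroblasts, rose from 6 counts to 53 over the group. Tcf21, the transcription factor of epicardium-derived fibroblasts, was lower, at 118 and 119 against 55.6 and 44.4 CPM (-1.25 ± 0.12, adjusted p = 1.5e-07). Lum, a collagen-binding proteoglycan gene, was higher at 18 months under MGT (0.65) and lower under LacZ (-1.77), and the difference of these changes was 2.42 ± 0.21 (adjusted p = 5.5e-07). The MGT call was lost without 18-month replicate 1 (adjusted p = 0.064) or neonatal replicate 2 (0.054).

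The matrix differed in makeup. Of 32 fibrillar matrix genes 14 were lower and 8 higher (median log2 change -0.12), and their summed level was 46300 and 45400 CPM in neonatal and 31700 and 34600 CPM in 18-month MGT cells. Fn1, the fibronectin gene, alone measured 17500 and 17500 CPM against 5890 and 6430 CPM (-1.51 ± 0.16, edgeR adjusted p = 5.9e-07). Postn, the periostin gene of activated and developing fibroblasts, measured 2110 and 2080 against 175 and 168 CPM (-3.61 ± 0.1, adjusted p = 1.3e-14), and Col14a1 measured 107 and 135 against 4.22 and 4.15 CPM (-4.85 ± 0.27). Of the main fibrillar collagens Col1a1 was lower by a little, at 5960 and 5800 against 4100 and 5230 CPM (-0.33 ± 0.1, adjusted p = 0.015, but 0.24 without 18-month replicate 1 and 0.08 without neonatal replicate 1), and Col3a1 was not called (-0.06 ± 0.1, adjusted p = 0.67). Tnc, the tenascin-C gene of wounds, was higher, at 951 and 854 against 2890 and 3040 CPM (1.72 ± 0.11, adjusted p = 2.5e-10), and so was Pcolce2, an enhancer of collagen processing, at 25.1 and 21.8 against 148 and 129 CPM (2.56 ± 0.11).

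Some elastic fibre and basement membrane genes differed by at least 2-fold, in both directions. Of 13 elastic fibre genes 3 were higher and 2 lower by that much, and of 18 basement membrane genes 1 and 3. Over all genes the shares were 4.80% and 6.41%. Eln, the elastin gene, measured 21.5 and 19.7 CPM in neonatal and 1.95 and 2.26 CPM in 18-month MGT cells (log2 change -3.28 ± 0.17, edgeR adjusted p = 2.6e-11). Emilin2, an elastic fibre glycoprotein gene, measured 8.26 and 5.85 against 87.7 and 105 CPM (3.77 ± 0.14, adjusted p = 2.4e-13), and Efemp1, a fibulin gene, 55.5 and 56.8 against 358 and 333 CPM (2.62 ± 0.08, adjusted p = 4.3e-14). Over the 13 elastic fibre genes 5 were higher (38.5%) and 2 lower (15.4%), against 16.5% and 18.0% of all genes. The basement membrane list had 33.3% higher and 16.7% lower. Of 18 basement membrane genes 6 were higher and 3 lower, with Nid1 (nidogen) at 1100 and 1070 against 3000 and 2960 CPM, and Lama5, a laminin chain gene of epithelia, at 89.4 and 81.2 against 9.14 and 8.86 CPM.

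Among 27 proteases and inhibitors of the matrix 12 were higher and 10 lower (median log2 change 0.21). Mmp3, a stromelysin gene (ENSMUSG00000043613, mm10 chromosome 9, 7445822 to 7455975), had the largest log2 change among the genes named for the size of their increase. It measured 12.4 and 9.88 CPM in neonatal and 730 and 664 CPM in 18-month MGT cells (log2 change 5.96 ± 0.14, edgeR adjusted p = 8.2e-16). The collagenase genes Mmp8 and Mmp13 and the stromelysin gene Mmp10 lie with Mmp3 on chromosome 9. They were higher as well, by 3.44 (Mmp8), 2.58 (Mmp10) and 2.28 (Mmp13). Mmp8 went from 3.48 and 4.76 to 48.5 and 40.9 CPM. Timp1, an inhibitor of these enzymes, measured 593 and 552 against 1470 and 1520 CPM (1.39 ± 0.09, adjusted p = 7e-10).

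Of 20 myofibroblast genes, which mark contractile fibroblasts of scars, 10 were lower and 5 higher (median log2 change -0.27). Ccn4, a Wnt-induced matricellular gene, measured 746 and 863 CPM in neonatal and 284 and 288 CPM in 18-month MGT cells (log2 change -1.49 ± 0.09, edgeR adjusted p = 1.4e-10), and Itga11, a collagen receptor gene, 21.2 and 16.5 against 4.16 and 3.58 CPM (-2.28 ± 0.2). Acta2, the smooth muscle actin gene, measured 3500 and 3690 against 3010 and 2870 CPM (-0.29 ± 0.08, adjusted p = 0.0067), a call lost without neonatal replicate 2 (adjusted p = 0.086) or 18-month replicate 2 (0.051). Il11, a cytokine gene of fibrosis, was higher, at 1.52 and 0.904 against 15.6 and 19.2 CPM (3.82 ± 0.26, adjusted p = 1.1e-09).

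Many secreted factors linked with senescence were higher. Of 37 tested 19 were higher, 12 of them by at least 2-fold, and 4 were lower (median log2 change 0.67), and their summed level was 5390 and 5260 CPM in neonatal and 8670 and 8760 CPM in 18-month MGT cells. The neutrophil chemokine gene Cxcl5 measured 176 and 113 against 1170 and 1130 CPM (log2 change 2.99 ± 0.15, edgeR adjusted p = 1.2e-11). Spp1, the osteopontin gene, measured 34.8 and 38.2 against 277 and 226 CPM (2.79 ± 0.13, adjusted p = 7.5e-12). Ereg, an epidermal growth factor receptor ligand gene, measured 327 and 300 against 826 and 712 CPM (1.3 ± 0.08), and the cytokine gene Il6 only 148 and 117 against 181 and 161 CPM (0.37 ± 0.13, adjusted p = 0.03). The Il6 call was lost without 18-month replicate 1 (adjusted p = 0.2) or neonatal replicate 2 (0.31). Ccl2, a monocyte chemokine gene, was lower, with a log2 change of -0.32, from a mean of 736 to 589 CPM. In the 3-month MGT libraries the list summed to 10800 and 11100 CPM, above both other ages.

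Genes of cell cycle arrest were more often lower than higher. Over all genes 16.5% were higher and 18.0% lower, against 17.6% and 47.1% of the inhibitor list and 4.17% and 37.5% of the p53 list. Of 17 tested senescence and cell cycle inhibitor genes 8 were lower and 3 higher (median log2 change -0.25), and of 24 p53 target genes 9 were lower and 1 higher (median -0.19). The summed level of the inhibitor list went the other way, from 7300 and 7520 CPM in neonatal to 9160 and 8640 CPM in 18-month MGT cells. That of the p53 list was 3990 and 4080 against 3890 and 3800 CPM. Cdkn2a, the locus of p16 and p19ARF, which these counts cannot separate, measured 10.5 and 6.63 CPM in neonatal and 14.9 and 15.9 CPM in 18-month MGT cells (log2 change 0.85 ± 0.18, edgeR adjusted p = 0.00093). Cdkn1a, the p21 gene, measured 670 and 698 against 665 and 696 CPM, with overlapping groups (-0.01 ± 0.07, adjusted p = 0.95). Cdkn1c, an imprinted inhibitor gene, had 57 counts over the neonatal and 10 over the 18-month libraries (-2.37 ± 0.53, adjusted p = 0.0016). Ddb2, a DNA repair gene that p53 induces, measured 8.15 and 6.87 against 2.08 and 2.14 CPM (-1.83 ± 0.22, adjusted p = 1.9e-06), and Plk2 was the target that was higher, at 353 and 353 against 517 and 506 CPM.

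Few proliferation genes were called under MGT. There 10 of 69 tested genes of G2 and mitosis were higher and 2 lower (median log2 change -0.01), against 16.5% and 18.0% of all genes, and of 50 genes of DNA replication 5 were higher and 7 lower (median -0.03). Under LacZ the same counts were 45 higher and 1 lower (median 0.37) and 26 higher and 1 lower (median 0.3). The gene-by-gene test of the difference between the 2 vectors called 6 and 2 of these genes, all with the age change lower under MGT, and its medians were -0.32 and -0.29. Among them was Cdk1, the mitotic kinase gene, at 106 and 105 CPM in neonatal and 104 and 88.4 CPM in 18-month MGT cells against 107 and 115 and 152 and 152 CPM under LacZ (difference -0.58 ± 0.13, edgeR adjusted p = 0.013). Rfc4, a clamp loader gene, was lower under MGT (-0.59 ± 0.15, adjusted p = 0.0051, lost without neonatal replicate 2 at adjusted p = 0.057). Rrm2, the ribonucleotide reductase gene, was higher under MGT at 148 and 147 against 238 and 206 CPM (0.59 ± 0.08, adjusted p = 1.5e-05). Cenpe, a mitotic kinesin gene, measured 66.8 and 29.6 against 87.2 and 84.2 CPM, with the neonatal libraries far apart (0.83 ± 0.22, adjusted p = 0.0066). That call was lost without neonatal replicate 2 (adjusted p = 0.075), where the log2 change was 0.36, and without 18-month replicate 1 (0.052). Without neonatal replicate 2 the count of mitosis genes that were higher fell from 10 to 1, and without 18-month replicate 1 to 2, and the 2 lower ones became 1 without neonatal replicate 1 or either 18-month replicate. Of the replication genes, the 5 higher became 3 without neonatal replicate 2, and the 7 lower became 3 without that library and 4 without 18-month replicate 2 or neonatal replicate 1.

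**Figure D4:**
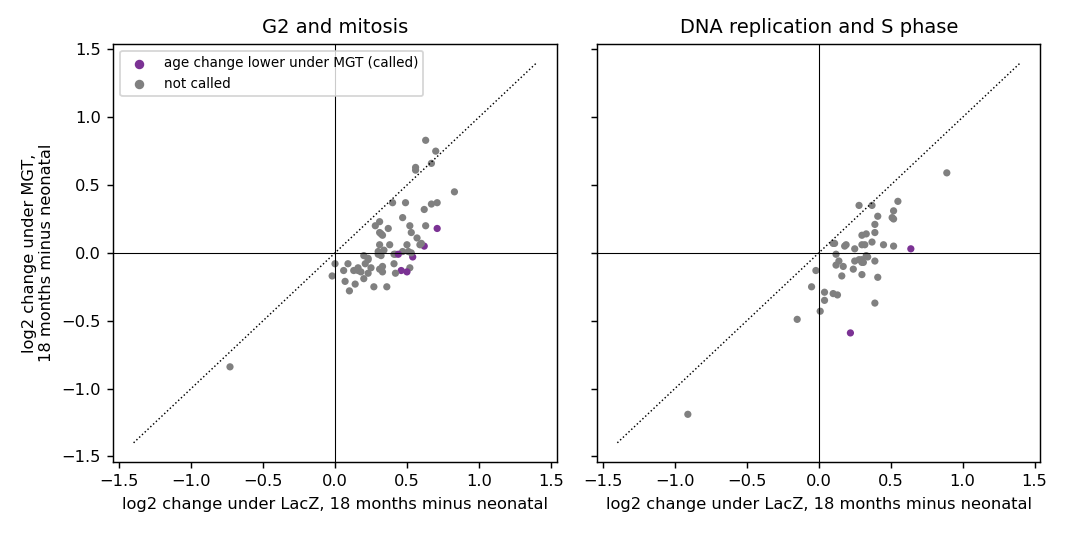
Log2 change of 18 months minus neonatal under LacZ (horizontal axis) and under MGT (vertical axis) for 69 genes of G2 and mitosis (left) and 50 of DNA replication (right), with the dotted line at equal changes. Most points lie right of 0 and below the line, and the purple ones, 6 and 2, are those whose changes were called different.

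In promoters of the mitosis list 40 of 57 genes with a window (70.2%) held the CHR element TTTGAA on either strand, against 20.2% of all genes, and 70.2% held a CCAAT box against 41.1%. Of 38 replication genes with a window 12 (31.6%) held the E2F site TTGGCGC, against 2.85% of all genes. MEF2 elements were found in 2 of 7 thick filament, 0 of 8 thin filament and 5 of 14 Z-disc genes with a window, against 3.70% of all genes. These are matches of letters in a window of 300 bases.

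Nr4a3, the nuclear receptor gene of the study's title (ENSMUSG00000028341, mm10 chromosome 4, 48045153 to 48086447), was higher at 18 months, and so were its relatives. It measured 10.1 and 8.14 CPM in neonatal and 22.7 and 32.2 CPM in 18-month MGT cells (log2 change 1.59 ± 0.18, edgeR adjusted p = 1.3e-06), with no overlap. In the 3-month MGT libraries Nr4a3 stood at 37.6 and 44.8 CPM and Nr4a1 at 244 and 286 CPM, each above both other ages. Nr4a2 measured 8.04 and 3.98 against 12.2 and 15.9 CPM (1.22 ± 0.26, adjusted p = 0.001) and Nr4a1 138 and 99.5 against 163 and 195 CPM (0.59 ± 0.14, adjusted p = 0.0022). The Nr4a1 call was lost without 18-month or neonatal replicate 2 (adjusted p = 0.057 and 0.06). For Nr4a1 the age change was smaller under MGT than under LacZ, where it rose by 1.85 (difference -1.26 ± 0.19, adjusted p = 0.00067), while for Nr4a3 the difference was not called (-0.27 ± 0.3, adjusted p = 0.73). Of 30 NR4A and immediate early genes, which cells induce within minutes of a stimulus, 13 were higher and 4 lower (median 0.18), the 4 becoming 2 without neonatal replicate 1. Ptgs2, the inducible prostaglandin synthase gene, changed most, from 291 and 218 to 1220 and 1150 CPM (2.22 ± 0.11, adjusted p = 1.9e-11). Egr1 and Fos were not called, with log2 changes of -0.15 and 0.17.

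Signalling genes moved in both directions, against 16.5% of all genes higher and 18.0% lower. The share of TGF beta and BMP genes that were lower (17.6%) was near that of all genes. Of 34 TGF beta and BMP genes 18 were higher and 6 lower (median log2 change 0.25), with the co-receptor gene Tgfbr3 at a mean of 29.9 against 96.3 CPM among the higher ones. Of 37 Wnt genes 16 were lower and 9 higher (median -0.55). Frzb, a secreted Wnt antagonist gene, measured 105 and 93.2 CPM in neonatal and 317 and 296 CPM in 18-month MGT cells (1.63 ± 0.1, edgeR adjusted p = 2.2e-10). Of 27 IGF and FGF genes 10 were lower and 9 higher. Pappa, a protease gene that frees IGF from its binding proteins, measured 188 and 187 against 13.9 and 12.3 CPM (-3.84 ± 0.17, adjusted p = 3.7e-12), and Fgf10, a ligand of epithelial FGF receptors, 0.674 and 0.482 against 25.6 and 27 CPM (5.48 ± 0.2, adjusted p = 2.3e-13). Of 13 Notch genes 4 were lower and 1 higher, with the ligand gene Jag1 at a mean of 113 against 47.2 CPM and the receptor gene Notch3 at 74.6 against 24.4 CPM.

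Few genes of oxidative phosphorylation were called. Of 41 nuclear genes of oxidative phosphorylation 2 were higher and 2 lower under MGT (median log2 change -0.08), below the 34.5% of all genes called, while 16 were higher under LacZ. Under MGT the 2 higher became 1 without either neonatal replicate, and the 2 lower became 1 without 18-month or neonatal replicate 2. Of 22 fatty acid oxidation genes 5 were higher and 3 lower, the latter becoming 1 without neonatal replicate 2. Fabp3, the heart fatty acid-binding protein gene, was lower, at a mean of 16.8 against 6.33 CPM (-1.41), and Pdk4, the kinase gene that holds back glucose oxidation, higher, at 22.7 against 65.7 CPM (1.54). Of 18 glycolysis genes 5 were higher and 4 lower (27.8% and 22.2%, against 16.5% and 18.0% of all genes). The lactate exporter gene Slc16a3 measured a mean of 29.5 against 7.3 CPM (-2.02), and Pkm, the pyruvate kinase gene, 1200 against 1910 CPM (0.67). Of 24 unfolded protein response genes 6 were higher and 3 lower (25% and 12.5%). Of 28 autophagy and lysosome genes 6 were higher and 8 lower (21.4% and 28.6%). The 6 higher unfolded protein response genes became 2 without neonatal replicate 2 and 3 without 18-month replicate 1. The 6 higher autophagy and lysosome genes became 2 without neonatal replicate 1 and 3 without 18-month or neonatal replicate 2.

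Of 31 genes of chromatin and other barriers to reprogramming 10 were lower and 4 higher (median log2 change -0.05). Dnmt3a, a DNA methyltransferase gene, measured 96.8 and 101 CPM in neonatal and 61.9 and 52 CPM in 18-month MGT cells (-0.8 ± 0.1, edgeR adjusted p = 6.6e-06), and Tet1, which oxidises methylated cytosine, 5.11 and 6.09 against 2.39 and 1.95 CPM. Snai1, a mesenchymal repressor gene that opposes reprogramming, was higher, at 20.9 and 21 against 49.5 and 57.4 CPM (1.35 ± 0.11, adjusted p = 6.7e-09). Of 16 cartilage and bone genes 8 were higher and 2 lower (median 0.71). Alpl, the alkaline phosphatase gene of mineralising cells, measured 0.787 and 0.542 against 23.2 and 28.3 CPM (5.25 ± 0.26, adjusted p = 1.3e-11), whereas Acan, the aggrecan gene of cartilage, was lower at 16.7 and 14.9 against 4.16 and 3.65 CPM. Of 8 Schwann and neuronal markers 2 were higher and 3 lower, of 3 adipocyte markers 2 were higher, and of 9 genes of mature myocyte metabolism 2 were higher and 2 lower. The 3 lower Schwann and neuronal markers became 1 without 18-month replicate 1. The 2 higher genes of myocyte metabolism became 0 without 18-month replicate 2 or neonatal replicate 1, and 1 without neonatal replicate 2.

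Most of the age difference under MGT was also present under LacZ, in libraries that the MGT comparison does not share. Of the 1975 genes higher under MGT 1407 (71.2%) were also higher under LacZ, which is 62% of the 2268 genes higher there. Of the 2149 lower under MGT 1629 (75.8%) were also lower under LacZ, which is 63.7% of 2557. Opposite calls were made for 20 and 3 genes. The age changes themselves were called different between the vectors in 351 genes (2.94%), with 277 changes higher under MGT (2.32%) and 74 lower (0.620%). Among the 1629 genes lower under both, 129 differed less between the ages under MGT and 5 differed more. Among the 1407 higher under both, 29 differed more under MGT and 19 less. Tnnt2 was one of the 129 genes that were lower under both and differed less under MGT. Under LacZ it fell from 308 and 262 CPM in neonatal to 4.11 and 2.48 CPM in 18-month cells. That was a log2 change of -6.42, against -2.09 under MGT (difference 4.33 ± 0.25, edgeR adjusted p = 3e-09). The count of 351 became 669 when the fit held the compared groups alone, and 186 without 18-month MGT replicate 2.

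**Figure D5:**
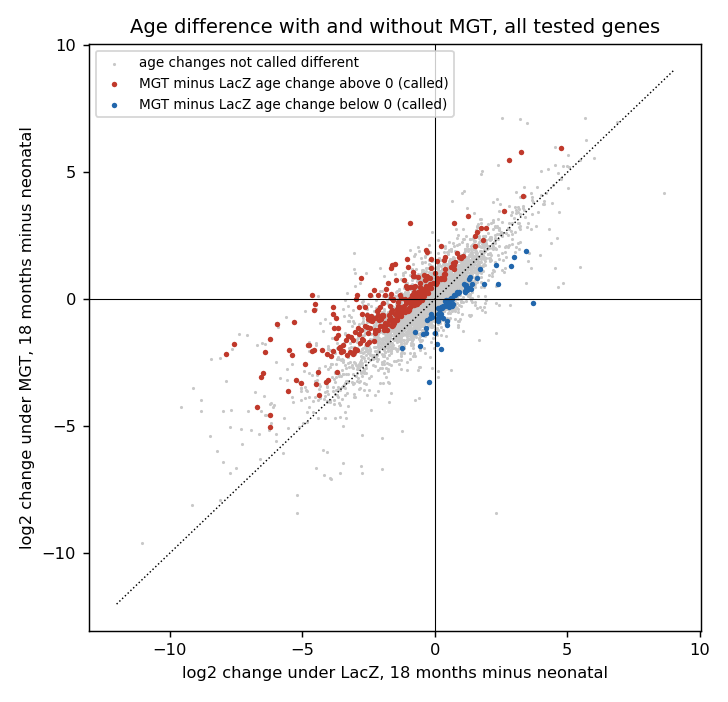
Log2 change of 18 months minus neonatal under LacZ (horizontal axis) and under MGT (vertical axis) for the 11940 tested genes, with the dotted line at equal changes. The 277 red and 74 blue points are genes whose changes were called different, and more of the red ones lie in the quadrant where both changes are below 0.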

How the data were processed

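Total RNA was purified with TRIzol, freed of rRNA and made into strand-marking paired-end libraries, per the labels' protocols, although the labels also call the molecule polyA RNA. Per the submitters' processing notes, reads were trimmed with Trimmomatic 0.36 and assigned to genes by featureCounts (Subread 1.5.1) on mm10. Which aligner, annotation and strand setting were used is not given in the sources used here. Per the file headers, the authors deposited whole-number counts and FPKM per gene and library. The titles name MGT in every library, so the vector was read from the treatment field.

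Library totals were recovered from counts, FPKM and exon length of genes with FPKM of at least 20, and CPM were computed on them after TMM. The table ends at an Ensembl identifier, and genes with later ones, Actc1, Trp53 and Cdkn2b among them, are not analysed here. edgeR 4.0.16 in R 4.3.3 fitted 6 group means over 12 libraries (filterByExpr, glmQLFit, glmQLFTest; 6 residual and 12.14 prior degrees of freedom; common BCV 7.42%). Every adjusted p of a gene comes from that test, with Benjamini-Hochberg adjustment over 11940 genes. Alternatives used DESeq2 1.42.0 and limma 3.58.1. On simulated counts edgeR recovered 78% to 98% of genes changed 2-fold or 4-fold (log2 changes of 1 or 2 either way), with 12 false calls. The simulation changed 50 genes at each log2 value, drawn from genes above a minimum expected count, and left all others unchanged in every group. That is a far smaller share than the 34.5% called in the data, and recovery at low counts was not assessed.

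A count of 0 was read as up to 3 counts over a group; intervals and floors cover counting error only. A floor of 3 counts in 1 library is 0.1686 to 0.189 CPM in the 4 libraries compared.

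The comparison, the gene lists and the naming rule were chosen with earlier results of these data known. The text names the vector genes and Nr4a3, the 15 largest changes in each direction at 10 CPM or more (not all printed), up to 4 called and 2 uncalled members of each list, the 5 largest called differences of response in each direction, also at 10 CPM or more, and abundant markers. A further 43 genes (Aldh1a2, Atp2a2, C1qa, C1qb, C1qc, Ccl2, Ccr2, Cd163, Cdk1, Cdkn1c, Col1a1, Col3a1, Cryab, Cx3cr1, Ddx60, Ereg, Fn1, Fos, Frzb, Gbp3, Hmox1, Ifit2, Igf2, Il6, Irf7, Isg15, Lum, Lyve1, Mef2a, Mycn, Nqo1, Nr4a1, Pi16, Plk2, Ptges, Slc7a11, Synpo2l, Tcf21, Timp1, Tnc, Tpm1, Vwf and Bst2) were chosen after their values were seen.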

Additional observations from a re-analysis of the deposited data

Results flagged for a closer look

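The age change under MGT was tested against the age change under LacZ gene by gene, and the 5 largest called differences in each direction were singled out among genes with a mean of at least 10 CPM in any of the 4 groups. All came from edgeR's quasi-likelihood test of that difference, with log2 values.

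For the first 5 genes the age change was higher under MGT than under LacZ. Myl7, an atrial myosin light chain gene, had a difference of 5.72 ± 0.79 (SE, adjusted p = 0.00027), from 8.2 and 9.28 to 0.0578 and 0 CPM under LacZ. Tnnt2, described above, had 4.33 ± 0.25 (adjusted p = 3e-09). Kank4, a cortical scaffold gene, had 4.79 ± 0.57 (adjusted p = 3.8e-05): it measured 10.1 and 10.1 CPM in neonatal and 12 and 10.7 CPM in 18-month MGT cells, against 2.6 and 2.19 and 0.0578 and 0.124 CPM under LacZ. Upk1b, a uroplakin gene of mesothelium, had 4.64 ± 0.2 (adjusted p = 4.8e-11): 83 and 89.2 against 26.6 and 30.8 CPM under MGT, and 145 and 139 against 1.62 and 2.17 CPM under LacZ. Cyp2s1, a cytochrome P450 gene, had 4.45 ± 0.57 (adjusted p = 8e-05), with 19.5 and 17.1 against 0.289 and 0.619 CPM under LacZ. In 18-month LacZ cells Myl7 had 1 count and Kank4 3 counts over both libraries, so their fitted values depend on the prior count.

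The other 5 genes had a lower age change under MGT. Abi3bp, a matrix protein gene, had -3.86 ± 0.39 (adjusted p = 4.9e-06): 21.4 and 25.2 against 21.8 and 20.1 CPM under MGT, and 0.453 and 0.48 against 5.9 and 6.5 CPM under LacZ. Fras1, a basement membrane gene, had -3.04 ± 0.54 (adjusted p = 0.0025), at 10.6 and 15.1 against 1.7 and 1.01 CPM under MGT. Rrad, a GTPase gene that restrains calcium channels, had -2.16 ± 0.43 (adjusted p = 0.0065), at 13.1 and 20.3 against 2.84 and 5.85 CPM. Rgs2, a regulator of G protein signalling, had -1.58 ± 0.31 (adjusted p = 0.0066), and Arhgap20, a GTPase-activating protein gene, -1.55 ± 0.29 (adjusted p = 0.0034). Both were higher at 18 months under either vector.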

How the results depend on the processing

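Under MGT, the counts of called, higher and lower genes stayed within 1.5 times of 4124, 1975 and 2149 in every alternative run (RLE size factors, DESeq2, limma voom, 2 filters, column sums, only the compared groups, limma on FPKM, the block and leaving out a library). Differences of response depended more on the fit. Their 351 calls (277 higher, 74 lower) became 635 (466 and 169) with no filter on low counts and 669 (457 and 212) with only the compared groups, and ranged from 186 to 309 in all, 163 to 244 higher and 23 to 65 lower with a library left out. The cause was not tested. Mitosis genes higher under MGT numbered 5 with DESeq2 and 6 with a 1 CPM filter or limma on FPKM. For 290 genes named by the rule or in the text, 3915 of 4056 gene and setting pairs kept their call, 84 lost it and 57 gained it, and no called change turned.

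Same-numbered libraries did not deviate together (15 correlations from -0.05 to 0.053). Each correlation rests on a single difference between the libraries of each group, counting noise included. Whether the numbers pair the samples was therefore not settled. The replicate block gave 4089 calls under MGT (1958 higher, 2131 lower), 4789 under LacZ and 343 for the response.

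Vwf, called at an adjusted p of 0.05, lost its call in most settings. With 2 libraries a group, a group's spread is known poorly and was shared over all 6 groups.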

Other observations

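Genes of oxidative and xenobiotic defence were higher in 18-month MGT cells. The 3 gene lists described here were drawn up after the values were seen, so their counts are descriptions. Of 30 tested targets of NRF2, the transcription factor of the antioxidant response, 26 were higher and none was lower (median log2 change 1.12, against 16.5% of all genes higher and a median of -0.01), and 7 of them had a higher age change under MGT than under LacZ. Their summed level was 5050 and 5120 CPM in the neonatal, 8180 and 8100 CPM in the 3-month and 11100 and 11600 CPM in the 18-month MGT libraries. Nqo1, a quinone reductase gene, measured 28 and 25.3 CPM in neonatal and 283 and 316 CPM in 18-month MGT cells (log2 change 3.49 ± 0.12, edgeR adjusted p = 9.9e-14). Hmox1, the heme oxygenase gene, measured 176 and 185 against 557 and 628 CPM, Slc7a11, the cystine importer gene, 15.9 and 15.6 against 92.4 and 82.9 CPM, and Gsta3, a glutathione transferase gene, 0.731 and 1.15 against 52 and 50.8 CPM. Without 18-month replicate 2, 1 member of the list was called lower.

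Of 7 tested targets of the aryl hydrocarbon receptor, which senses planar aromatic compounds, 6 were higher (median 1.84), Nqo1 being on both lists. Cyp1a1, its classical target, measured 0.337 and 0.241 CPM in neonatal and 12.2 and 14.3 CPM in 18-month MGT cells (5.47 ± 0.38, adjusted p = 1.3e-09), and its age change was higher than under LacZ (difference 2.7 ± 0.58, adjusted p = 0.013). Of 19 tested genes of prostaglandin synthesis and signalling 10 were higher and 1 lower (median 0.86). Ptges, the prostaglandin E synthase gene, measured 7.92 and 6.03 against 33.5 and 38.6 CPM, and Ptgir, the prostacyclin receptor gene, 1.63 and 2.29 against 32.6 and 31.6 CPM. F3, the tissue factor gene that starts coagulation, measured 35.2 and 27 against 553 and 491 CPM (4.07 ± 0.11, adjusted p = 1.3e-14).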
